A study of Mus musculus with 6 samples.

Results

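The genes that carry a cell through G2 and mitosis were read in sorted hematopoietic stem cells, the source of every blood lineage in the marrow, with and without the arginine methyltransferase gene Prmt5. The 35 genes were taken by symbol, for their known roles, from the 24110 genes of the table: mitotic cyclins and kinases, checkpoint and kinetochore proteins, spindle motors and cytokinesis factors. This choice was made with earlier results of these data known. One group, Prmt5 fl/fl, came from C57BL/6 mice with a floxed and undeleted Prmt5. The other, Prmt5 KO, came from C57BL/6 mice with the deleted form (Δ/Δ), littermates matched for sex. Both were sampled 7 days after induction and sorted for Sca-1 and CD150 and against lineage markers and CD48. Each group held 3 libraries, and each library was made from the pooled marrow of 2 mice. The sources used here name neither the Cre line nor the inducing agent, the age of the mice or the deleted exons. Values are scaled counts, which are reads per gene brought to 1 common library total of 44704636.

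Entry into mitosis is driven by CDK1 bound to cyclin A2, B1 or B2, and exit by the anaphase-promoting complex, which marks the cyclins for destruction. The spindle checkpoint holds that complex back until every kinetochore has captured microtubules. Most of these genes are transcribed late in the cell cycle, when the MuvB core, joined by B-MYB and FOXM1, binds a promoter element called the CHR near sites of NF-Y, a factor that reads CCAAT. In resting cells the same core joins p130 and E2F4 in the DREAM complex, which holds the genes down, and the p53 target p21 favours that form. Blood stem cells are known for long rest between divisions.

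The promoters of these genes share a layout that the choice of genes did not use, and 5 promoters with it are shown beside that of Nek6, the single gene past the test, which lacks part of it. RefSeq start sites on GRCm38.p6 were found for 29 of the 35 genes, in 31 windows of 300 bases, from 250 before to 50 after the start. A CHR-like match here is TTTGAA or TTTAAA and an NF-Y-like match is CCAAT, each searched on both strands. The 250 bases before the start are printed 5′ to 3′ along the gene's strand, with every match in capitals. ATTGG and TTCAAA are CCAAT and TTTGAA read on the other strand, and CCAATTGG in Ube2c holds overlapping matches on both strands.
Ccnb1 (cyclin B1, chr13:100786487-100786736, minus strand): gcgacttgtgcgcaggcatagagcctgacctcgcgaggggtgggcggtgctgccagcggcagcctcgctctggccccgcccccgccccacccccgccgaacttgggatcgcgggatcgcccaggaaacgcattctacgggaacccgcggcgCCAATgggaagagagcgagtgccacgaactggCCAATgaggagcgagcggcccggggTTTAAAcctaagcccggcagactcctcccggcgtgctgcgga
Cdk1 (chr10:69352913-69353162, minus strand): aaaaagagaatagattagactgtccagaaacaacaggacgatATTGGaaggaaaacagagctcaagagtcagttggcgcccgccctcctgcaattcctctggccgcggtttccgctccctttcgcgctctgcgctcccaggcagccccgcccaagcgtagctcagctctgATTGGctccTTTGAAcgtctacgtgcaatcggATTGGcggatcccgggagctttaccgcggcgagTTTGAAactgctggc
Cdc20 (chr4:118437344-118437593, minus strand): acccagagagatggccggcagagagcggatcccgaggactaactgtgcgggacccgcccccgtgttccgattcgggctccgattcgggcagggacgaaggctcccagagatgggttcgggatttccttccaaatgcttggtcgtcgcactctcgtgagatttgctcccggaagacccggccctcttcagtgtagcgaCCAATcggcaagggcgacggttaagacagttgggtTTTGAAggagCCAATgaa
Ube2c (chr2:164769679-164769928, plus strand): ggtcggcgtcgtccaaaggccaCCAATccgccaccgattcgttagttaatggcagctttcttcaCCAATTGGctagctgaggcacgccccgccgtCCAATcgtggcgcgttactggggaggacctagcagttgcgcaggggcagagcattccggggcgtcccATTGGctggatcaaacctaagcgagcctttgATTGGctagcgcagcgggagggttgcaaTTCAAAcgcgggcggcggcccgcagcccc
Top2a (chr11:99024190-99024439, minus strand): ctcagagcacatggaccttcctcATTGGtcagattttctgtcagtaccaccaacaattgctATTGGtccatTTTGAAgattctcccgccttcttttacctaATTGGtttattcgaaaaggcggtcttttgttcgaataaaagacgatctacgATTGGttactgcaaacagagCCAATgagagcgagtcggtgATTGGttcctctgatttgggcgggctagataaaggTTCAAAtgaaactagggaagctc
Nek6 (chr2:38511447-38511696, plus strand): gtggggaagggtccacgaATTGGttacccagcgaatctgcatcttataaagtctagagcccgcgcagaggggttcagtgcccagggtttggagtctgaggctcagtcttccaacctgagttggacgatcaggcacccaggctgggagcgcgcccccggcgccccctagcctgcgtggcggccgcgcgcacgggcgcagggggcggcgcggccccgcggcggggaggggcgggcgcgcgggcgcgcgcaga

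In the Ccnb1 window the CHR-like match starts 42 bases before the start site and the nearer CCAAT 67 before it. Ube2c and Top2a each carry 6 CCAAT matches. Nek6 has 1, at 232 before the start, and no CHR-like match, and a window at its second start has neither. It is not alone in this: the windows of Bub1, Nuf2, Nusap1 and Mad2l1 also hold no CHR-like match, and none of these 4 genes passed the test below. Of the 31 windows, 23 (74.2%) held CCAAT and 25 (80.6%) a CHR-like match, against 37.4% and 27.6% of 32851 windows of all genes. Both stood in 21 windows (67.7%), against 10.7% of all. A CHR-like match starting 20 to 40 bases downstream of a CCAAT match was in 15 windows (48.4%), against 1.45% of all. In 74 windows of other G2 and mitosis genes the share with both was 48.6%, and in 39 of G1/S and DNA replication genes 15.4%. A CHR-like match was in 64.9% of the former and in 9 (23.1%) of the latter. CCAAT was in 68.9% and 56.4%. The 20 genes with both had a median log2 fold change of -0.025 and the 9 with 1 or none one of 0.094, a description with no test. That distance was chosen after the positions were seen. Matches of short words are a description of these windows and no measure of binding.

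Library totals ran from 37834096 to 44704636 reads. Prmt5 was at 6010 to 6076 scaled counts in fl/fl and at 897 to 1056 in KO, so every library matched its label. Of the sort markers, Ly6a, which encodes Sca-1, was at 4969 to 9401, Slamf1, which encodes CD150, at 2731 to 4489 and Cd48 at 446 to 757. Kit, a stem and progenitor gene that the labels do not name for the sort, was at 19323 to 56475. Prmt5 fl/fl replicate 3 stood apart: its chi-square per degree of freedom against the other libraries was 210 to 376. KO replicate 3 came next, at 125 to 191 against the libraries other than fl/fl replicate 3. Between the remaining pairs the value was 27.3 to 95.2. Limma called 39 genes higher in KO and 64 lower among 14113 tested, and the split was 35 and 22 with median-of-ratios size factors, 39 and 26 with quantile normalization and 34 and 26 with edgeR. In bulk RNA of this kind, a smaller share of dividing cells and less message per cell cannot be told apart.

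All 35 genes were read in every library, at 1098 scaled counts or more, and all passed the filter on low values. Per length, their levels ran from an RPKM (reads per kilobase of deposited length, scaled to library size) of 10.1 to 176, with a median of 53.8 against 10.1 over all genes tested. Together they took 0.627%, 0.518% and 0.647% of reads in Prmt5 fl/fl replicates 1 to 3, and 0.567%, 0.590% and 0.558% in Prmt5 KO replicates 1 to 3. The KO shares lay inside the range of the fl/fl shares.

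Of the 35 genes, 1 rose in Prmt5 KO, the kinase Nek6, and 0 fell (limma, Benjamini-Hochberg over all genes tested). Over all genes tested 0.73% passed this test, 0.276% higher and 0.453% lower. At an unadjusted p below 0.05 there were 2 of 35 genes (5.71%), Nek6 and Ckap2l, against 18.2% of all genes tested. The same 2 genes had groups that did not overlap, against 28.2% of all. EdgeR and DESeq2 on the recovered reads also called Nek6 and no other gene of the 35, while calling 0.425% and 6.95% of all genes tested.

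The median log2 fold change of the 35 genes was -0.020, against -0.048 over all genes tested, and median-of-ratios size factors turned it to 0.067 and quantile normalization gave -0.013. Folds were above 0 for 16 genes and below 0 for 19. Without Nek6, the other 34 lay between -0.41 and 0.34 on the log2 scale. The 95% intervals of these 34 genes reached from -0.83 to 0.78 at the widest, so each stayed within a 2-fold change in either direction. A p that misses the threshold does not show equal levels, and these intervals give the size of change that the 3 libraries a group could still hide.

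**Figure D1:**
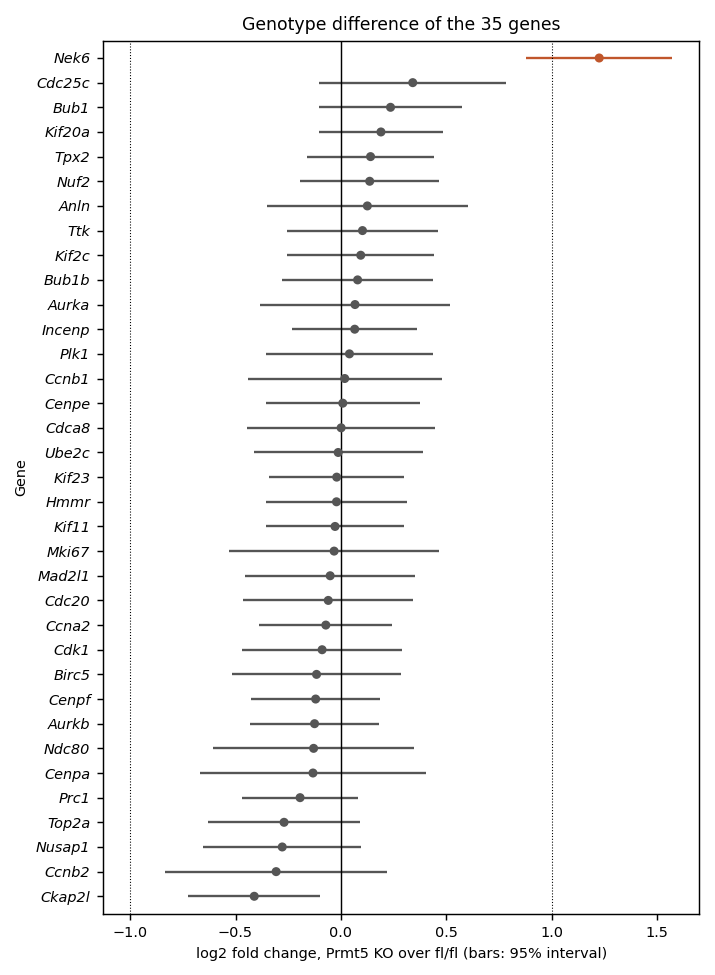
Log2 fold change of Prmt5 KO over Prmt5 fl/fl (x axis, log2 of scaled counts plus 1) for the 35 genes (y axis), with limma's 95% interval as bars and dotted lines at a 2-fold change. Nek6 stands at 1.23 and the other 34 genes lie between -0.41 and 0.34.

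Nek6 encodes a NIMA-related kinase that works downstream of NEK9 and phosphorylates the spindle motor KIF11. It lies on chromosome 2 (38511643 to 38594606, plus strand, GRCm38/mm10 with GENCODE M21). It read 1418, 1098 and 1279 scaled counts (fl/fl replicates 1 to 3) against 2846, 3168 and 2827 (KO replicates 1 to 3). Every KO library stood above every fl/fl library. Means of 1265 ± 161 and 2947 ± 192 (SD, n = 3 each) gave a 2.34-fold rise, 1.23 ± 0.15 (SE) on the log2 scale (limma, adjusted p = 0.0301). Within the pairs of libraries with the same replicate number the log2 differences were 1.00, 1.53 and 1.14. Blocking on the replicate number (below, the replicate block) gave a limma adjusted p of 0.197. The call was lost when any 1 library but fl/fl replicate 3 was left out, with adjusted p from 0.0644 to 0.184, while the log2 fold change stayed between 1.13 and 1.31.

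The last part of Nek6 overlaps Psmb7, a proteasome subunit gene on the opposite strand. In GENCODE M21 the 2 genes share 6571 bases, of which 405 are exon in both, 3.78% of the 10714 exon bases of Nek6 there. The deposited length of Nek6 is 3272 bases, so the share of the bases that were counted may be larger and was not measured. The libraries do not mark strand, so reads of the shared part cannot be told apart. Psmb7 was at 5255, 4539 and 5524 (fl/fl) against 6599, 5693 and 5515 (KO), so its groups overlapped. Its log2 fold was 0.22 ± 0.13 (SE; limma, adjusted p = 0.436), and the part of Psmb7 reads in the Nek6 values was not tested. The partners of Nek6 gave no call: Nek7, its closest relative, was at 3564 ± 122 and 2874 ± 231 (log2 -0.31, limma adjusted p = 0.241). Nek9, which activates both kinases, was at 4438, 4731 and 1818 (fl/fl) against 3847, 4447 and 4399 (KO). Its low value was in fl/fl replicate 3. Kif11 was at 10070, 8670 and 7698 (fl/fl) against 8083, 9482 and 8272 (KO), a log2 fold change of -0.028.

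**Figure D2:**
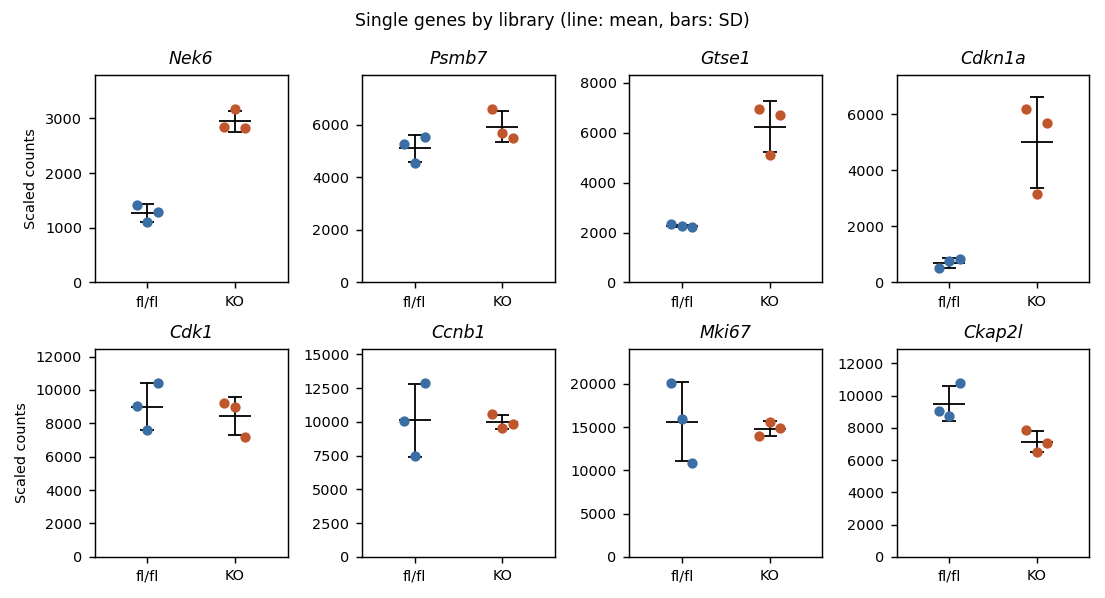
Scaled counts (y axis, from 0) of 8 genes in each Prmt5 fl/fl and Prmt5 KO library, with the mean as a line and the SD as bars (n = 3 each). Nek6, Gtse1 and Cdkn1a have groups apart and upward, while Cdk1, Ccnb1 and Mki67 have KO values within or close to the fl/fl range.

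Of the 5 genes of the cyclin and CDK1 engine 0 passed the test. Ccnb1, the B cyclin that carries CDK1 into the nucleus, was at 10068, 7433 and 12841 (fl/fl) against 10599, 9569 and 9835 (KO). The fl/fl values spread on both sides of the KO values, and the log2 fold change was 0.018 (95% interval -0.44 to 0.48). Ccnb2, the Golgi-linked B cyclin, was at 9786, 8361 and 15542 against 9475, 8050 and 8796. The single high value was again fl/fl replicate 3, and the log2 fold change of -0.31 had the widest interval on the lower side (-0.83 to 0.22). Cdk1 was at 9023, 7602 and 10389 against 9200, 8988 and 7155 (log2 -0.089). Ccna2, cyclin A2 of S phase and early mitosis, had means of 12720 ± 1275 and 12113 ± 1374 (log2 -0.072). Cdc25c, the phosphatase that activates CDK1, was at 1534, 1301 and 2084 (fl/fl) against 2080, 2026 and 2006 (KO). In KO its mean was 2037 ± 38.1 (SD, n = 3), close to fl/fl replicate 3 and above the other fl/fl libraries (log2 0.34; limma, adjusted p = 0.390). Without fl/fl replicate 3 the log2 fold change of Cdc25c was 0.53 (limma, adjusted p = 0.0586).

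Among the mitotic kinases, Plk1, which drives centrosome maturation and mitotic entry, was at 6311, 4901 and 7601 (fl/fl) against 6583, 6308 and 6157 (KO). Aurka, the centrosomal Aurora kinase, was at 5725, 4032 and 6771 against 5847, 5639 and 5447. In both, fl/fl replicate 2 was the lowest and fl/fl replicate 3 the highest of the 6 libraries, and all KO values lay between them. Their log2 fold changes were 0.040 and 0.067 (limma, adjusted p = 0.920 and 0.879). Nek6 was thus the single kinase of the 3 that passed the test.

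None of the 4 spindle checkpoint genes passed. Bub1, a kinetochore kinase, had the largest fold of them: it was at 4466, 3312 and 3708 (fl/fl) against 4211, 4670 and 4548 (KO) (log2 0.24; limma, adjusted p = 0.435). The highest fl/fl value lay inside the KO range. Ttk, the MPS1 kinase that starts the checkpoint signal, had a log2 fold change of 0.10, Bub1b, the BUBR1 subunit of the inhibitor of CDC20, one of 0.079, and Mad2l1, its MAD2 subunit, one of -0.051.

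The 4 genes of the chromosomal passenger complex, which corrects wrong attachments and later marks the cleavage plane, had folds from -0.13 to 0.065 on the log2 scale. Aurkb, its kinase, was at 7793, 6784 and 8448 against 7072, 7517 and 6475. Incenp, its scaffold, was at 10139, 8540 and 8324 against 8730, 10104 and 9360. Birc5, survivin, had means of 8612 ± 1954 and 7819 ± 308, and Cdca8, borealin, 9420 ± 2526 and 9220 ± 523. The SD in KO was below that in fl/fl for each of these 4 genes.

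At the centromere, Cenpa, the histone H3 variant that marks it, was at 7807, 6023 and 11626 (fl/fl) against 7845, 6926 and 7635 (KO). As with Ccnb2, fl/fl replicate 3 alone was high, and the log2 fold change was -0.13 (limma, adjusted p = 0.790). Ndc80 and Nuf2, partners in the complex that grips microtubules, had log2 fold changes of -0.13 and 0.14. Cenpe, a kinetochore motor, was at 5319 ± 816 and 5326 ± 535 (log2 0.0087), and Cenpf, a large kinetochore protein, at 5241 ± 547 and 4813 ± 342 (log2 -0.12). Their limma adjusted p values ran from 0.637 to 0.981.

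Among 6 genes for spindle motors and spindle assembly, Ckap2l had the lowest fold of all 35. CKAP2L is a protein of spindle poles and the mitotic spindle, and its gene was at 9040, 8708 and 10755 (fl/fl) against 7840, 6529 and 7031 (KO). The groups did not overlap, but the log2 fold change of -0.41 (standard error 0.13) did not pass (limma, adjusted p = 0.174). Nusap1, which bundles spindle microtubules, was at 7286, 6734 and 8818 against 5294, 7060 and 6486, a log2 fold change of -0.28 with overlapping groups. Tpx2, the activator of Aurora A at the spindle, had a log2 fold change of 0.14, Kif2c, the microtubule-depolymerising kinesin MCAK, one of 0.094, and Hmmr, a spindle assembly factor, one of -0.021.

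In the central spindle and cytokinesis group, Kif20a, a kinesin of the midzone, was at 6841, 5435 and 6165 (fl/fl) against 7138, 7067 and 6743 (KO) (log2 0.19; limma, adjusted p = 0.463). Prc1, which crosslinks midzone microtubules, was at 10122, 9371 and 10382 against 8034, 9586 and 8543 (log2 -0.19; limma, adjusted p = 0.429). Groups overlapped for both. Kif23, a motor subunit of centralspindlin, had a log2 fold change of -0.020 and Anln, the anillin of the contractile ring, one of 0.13.

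Cdc20 and Ube2c, the activator and the ubiquitin carrier of the anaphase-promoting complex, were the members with the highest levels per length apart from Ccnb2, at an RPKM of 140 and 176. Cdc20 was at 11412, 8911 and 14170 (fl/fl) against 10952, 10743 and 10806 (KO). The KO mean was 10834 ± 107 (SD, n = 3), and all KO values lay within the wide fl/fl range, with a log2 fold change of -0.060. Ube2c was at 7594, 5745 and 8975 against 7497, 7109 and 7149 (log2 -0.013).

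The last pair act on chromosome structure and are common marks of dividing cells. Mki67, which coats mitotic chromosomes and encodes the Ki-67 antigen, was at 20053, 15894 and 10907 (fl/fl) against 13922, 15606 and 14957 (KO). Here fl/fl replicate 3 was the lowest of the 6 libraries, and the log2 fold change was -0.032 (95% interval -0.53 to 0.47). Top2a, the topoisomerase that untangles sister chromatids, was at 23923, 21613 and 17861 against 15552, 20089 and 16864 (log2 -0.27; limma, adjusted p = 0.399).

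**Figure D3:**
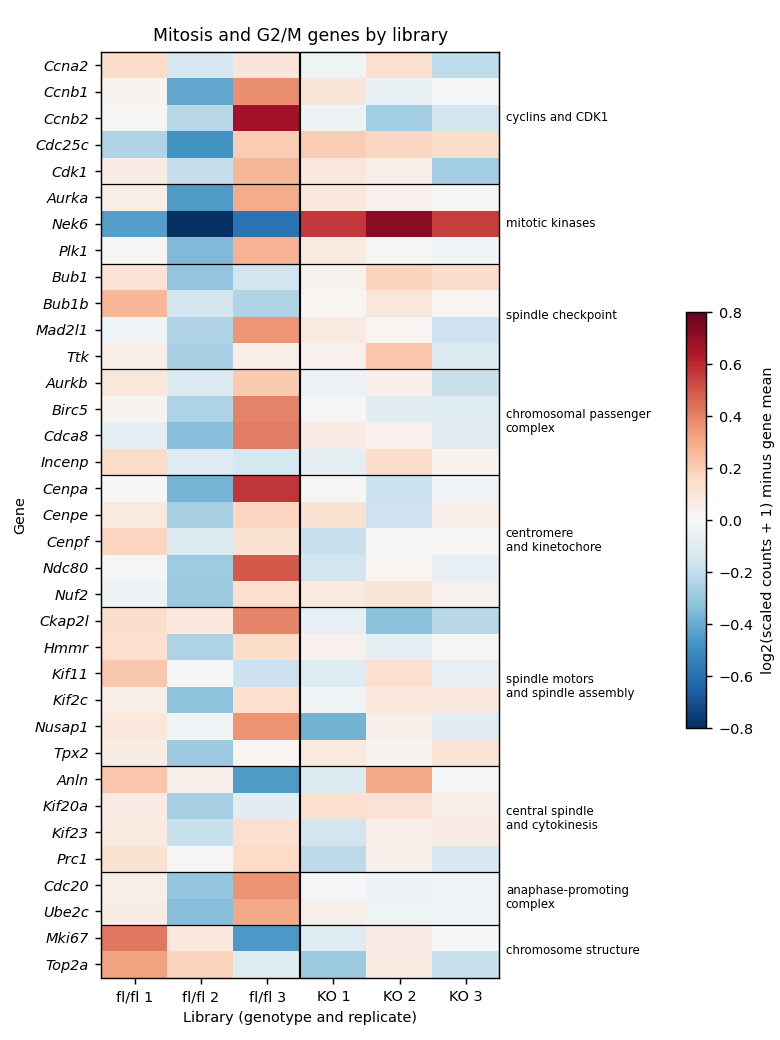
Log2(scaled counts + 1) minus the gene's mean over the 6 libraries (color) for the 35 genes (rows, grouped by role) in each library (columns). Nek6 is the one row with all 3 KO libraries high and all 3 fl/fl libraries low, and in many other rows fl/fl replicate 2 is the lowest library and fl/fl replicate 3 the highest.

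The fl/fl libraries differed from each other more than the KO libraries did. The median SD over the 35 genes, on the log2 scale, was 0.226 in fl/fl and 0.0921 in KO, and it was larger in fl/fl for 32 of 35 genes, against 67.5% of all genes tested. For 20 of the 35 genes (57.1%) all KO values lay inside the fl/fl range, against 21.6% of all genes tested. Prmt5 fl/fl replicate 3 was the highest library for 22 genes (62.9%), against 34.6% of all genes tested. It was the lowest for 5 (14.3%), against 31.1% of all. The lowest library for 21 genes (60.0%) was fl/fl replicate 2, against 12.5% of all. Without fl/fl replicate 3 the SD was still larger in fl/fl for 29 of 35 genes, against 30.5% of all genes tested, with a median of 0.198. All KO values then lay inside the fl/fl range for 7 genes, against 3.32% of all.

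The difference between genotypes turned with the pair compared. Between the libraries numbered 1 the median log2 difference of the 35 genes was -0.059, with 13 genes higher in KO. Between those numbered 2 it was 0.257, with 31 higher, and between those numbered 3 it was -0.158, with 9 higher. Over all genes tested the 3 medians were -0.095, -0.055 and -0.101. The median over the fit moved to -0.150 without fl/fl replicate 2 and to 0.084 without fl/fl replicate 3.

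Gene length went with the place of a gene in some libraries. The deposited lengths of the 35 genes run from 931 bases (Ube2c) to 11122 (Cenpf). Across the 34 genes other than Nek6, the deviation of a gene from its mean had a Spearman correlation with length of -0.746 in fl/fl replicate 3, and of 0.733 and 0.534 in fl/fl replicates 1 and 2. In KO replicates 1 to 3 it was -0.266, 0.311 and 0.343. Over all genes tested the 6 values were 0.280, 0.278 and -0.518 in fl/fl and 0.0199, 0.259 and 0.273 in KO. The genes share their libraries and are not independent replicates. Deviations of a gene balance out over the 6 libraries, so the 6 correlations are not independent either. A fall with length in 1 library tends to bring a rise in others.

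In fl/fl replicate 3 the 10 shortest of the 34 genes, of 931 to 2201 bases, stood at a median log2 of 0.355 above their means, and the 10 longest, of 3905 to 11122 bases, at -0.091. In fl/fl replicate 2 the medians were -0.324 and -0.182. Among short genes Ccnb2 and Cenpa were highest in fl/fl replicate 3, and among long ones Mki67 and Anln were lowest there. Not every gene followed this: Cenpe, of 7813 bases, was highest in fl/fl replicate 3 at 5960, and Cenpf, the longest, had its second highest value there at 5457. With a smooth trend on length taken out of each library, an analysis chosen after seeing the data, the median log2 fold change of the 35 genes was 0.079 (0.025 over all genes tested) and Nek6 was again the single call (limma, adjusted p = 0.0159).

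**Figure D4:**
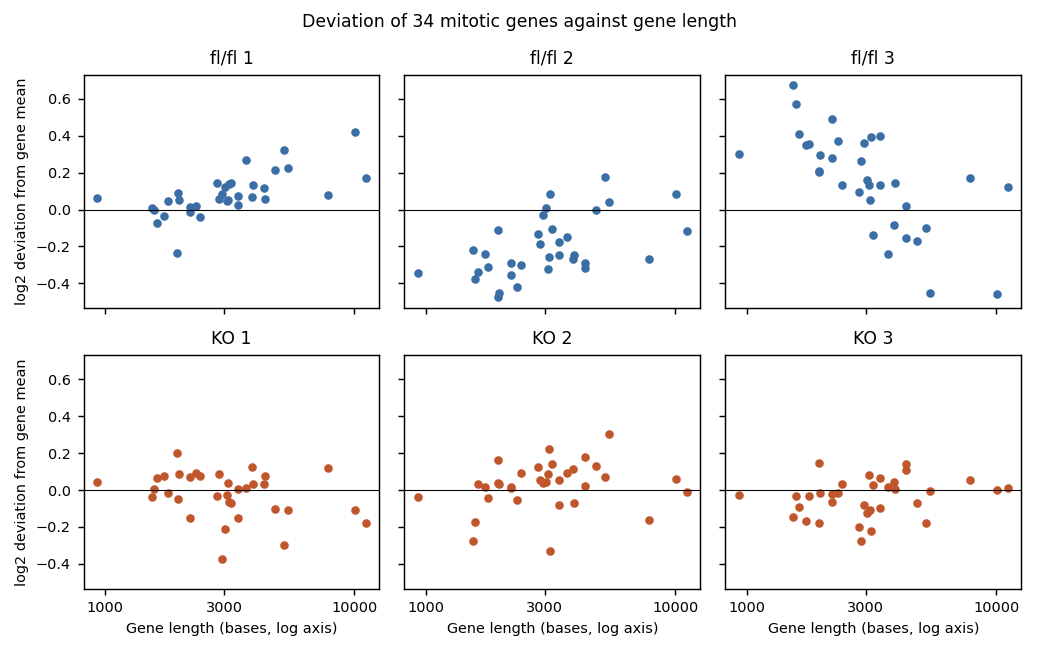
Deviation of each of 34 genes (Nek6 left out) from its mean over the 6 libraries (y axis, log2) against its deposited length (x axis, bases, log axis), with 1 panel per library. Points fall with length in fl/fl 3 (Spearman -0.746) and rise with it in fl/fl 1 (0.733). Deviations of a gene balance out over the 6 libraries, so the panels are not independent.

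Other genes of the same pathways were read in the same way. Of 84 further G2 and mitosis genes 82 were in the table and tested. Limma called 1 higher and 0 lower, against 0.73% of all genes tested, and the median log2 fold change was -0.073. At an unadjusted p below 0.05 there were 4 higher and 6 lower, against 18.2% of all. Groups were apart for 9 higher and 11 lower genes, against 28.2% of all. EdgeR called 1 higher and 0 lower and DESeq2 3 and 1, against 0.425% and 6.95% of all. For this list and the 5 lists that follow together the median was -0.042, and 0.045 with median-of-ratios size factors. The gene that rose by limma was Gtse1, whose product travels on growing microtubule ends and restrains p53 in G2. Gtse1 was at 2326, 2248 and 2215 (fl/fl) against 6940, 5094 and 6699 (KO), a rise of 1.45 on the log2 scale (limma, adjusted p = 0.0195, and 0.190 under the block). Its call was lost without fl/fl replicate 1, fl/fl replicate 2, KO replicate 1 or KO replicate 3, with adjusted p from 0.0644 to 0.153.

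Of 15 subunits and partners of the anaphase-promoting complex 0 passed the test, and none had an unadjusted p below 0.05. EdgeR and DESeq2 called 0 of them as well. The smallest p was that of Anapc4, a platform subunit (log2 0.26; limma, adjusted p = 0.312). Of 44 genes of G1/S and DNA replication 0 passed by limma, edgeR or DESeq2, and 1 had an unadjusted p below 0.05: Rfc2, a subunit of the clamp loader (log2 -0.45; limma, adjusted p = 0.190). The median of that list was -0.0087, close to that of the 35 mitotic genes. The difference between the lists was not tested.

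The regulators that turn these genes on and off were also measured. Of 23 genes for the DREAM and MuvB complexes, E2F factors, pocket proteins and NF-Y, 0 passed by limma, edgeR or DESeq2, and 1 had an unadjusted p below 0.05: E2f6, a repressor of E2F sites (log2 -0.60; limma, adjusted p = 0.124). Foxm1, the activator of the late genes, was at 4380, 3946 and 1575 (fl/fl) against 3405, 4896 and 4401 (KO). Its low value was in fl/fl replicate 3, the library that was highest for 22 of the 35 genes and lowest for 5. A link between Foxm1 and these values was not tested. Mybl2, which encodes B-MYB, was at 4224, 3715 and 2408 against 3652, 3926 and 3311 (log2 0.11). E2f4, the E2F of DREAM, had a log2 fold change of 0.27 and Lin54, the subunit that contacts the CHR, one of -0.020.

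Of 14 genes of the G2 checkpoint and p53 arrest list 2 rose, both known p53 targets, and 0 fell. Cdkn1a, which encodes the CDK inhibitor p21, was at 511, 764 and 822 (fl/fl) against 6182, 3140 and 5684 (KO) (log2 2.81; limma, adjusted p = 0.0195, and 0.190 under the block). Ccng1, cyclin G1, was at 4715, 5348 and 4538 against 12746, 8636 and 12416 (log2 1.19; limma, adjusted p = 0.0429, and 0.197 under the block). KO replicate 2 was the lowest KO library for both genes. The calls of Cdkn1a and Ccng1 were lost without the same 4 libraries as that of Gtse1, with adjusted p from 0.0642 to 0.228. Trp53 RNA, at 14941 ± 1059 and 17173 ± 1909, did not pass (log2 0.20; limma, adjusted p = 0.450).

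Among 12 other kinases of the NEK and PLK families, 8 passed the filter on low values and 1 rose. This was Plk2, a polo-like kinase induced by stress, at 202, 214 and 303 (fl/fl) against 1847, 709 and 1493 (KO) (log2 2.40; limma, adjusted p = 0.0475, and 0.197 under the block). Its call was lost by edgeR (adjusted p = 0.0538), and without the same 4 libraries (limma, adjusted p from 0.104 to 0.228). With no filter on low values and with median-of-ratios size factors the limma adjusted p of Plk2 was 0.0528 and 0.0522. Nek10 was at 0 in every library, and Nek5, Nek11 and Plk5 were below the filter.

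**Figure D5:**
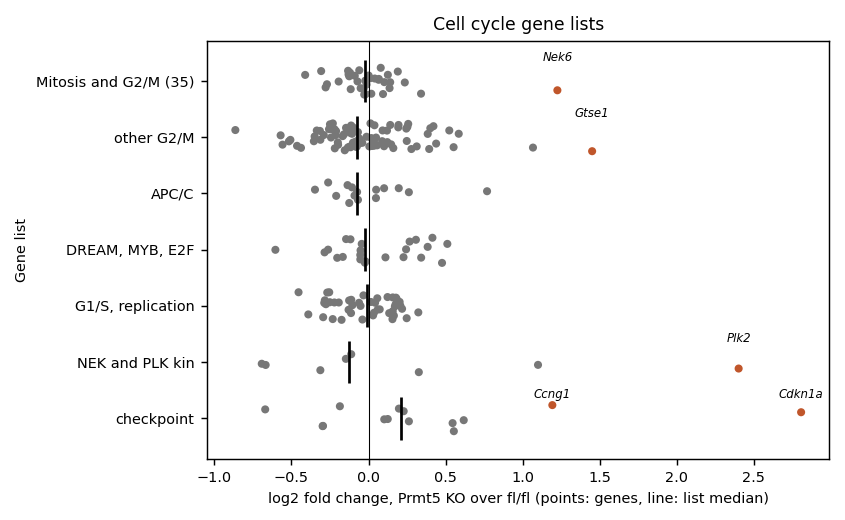
Log2 fold change of Prmt5 KO over Prmt5 fl/fl (x axis) for each tested gene of 7 cell cycle lists (y axis), with the list median as a line and genes past the limma threshold in red with their names. Medians lie between -0.13 and 0.21, and the 5 named genes all lie at 1.19 or more.

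Markers of other blood cells differed between the libraries too. Of 12 red cell precursor markers 10 were tested, 2 were lower in KO (Rhag and Klf1, limma adjusted p = 0.0195 and 0.0476; 0.161 for both with the replicate block) and 0 higher, and their sum was 10751 to 23232 scaled counts in fl/fl and 6759 to 7854 in KO. The adult globin genes Hba-a1 and Hbb-bs were at 0 in every library. Of 14 megakaryocyte markers 2 were lower (Itga2b and Rab27b, limma adjusted p = 0.0195 and 0.0475; 0.103 and 0.197 with the replicate block) and 0 higher, with a sum of 107835 to 129764 in fl/fl and 58303 to 86140 in KO. Myeloid progenitor markers, none of 12 past the test (1 with an unadjusted p below 0.05; 0 by edgeR and DESeq2), summed to 94166 in fl/fl replicate 1 and to 15160 to 45199 in the other libraries. The sum of 9 lymphoid markers was 3087 to 4719 in fl/fl and 2291 to 3010 in KO. The lymphoid sum was highest in fl/fl replicate 3, as was the mitotic sum. The red cell and myeloid sums were highest in fl/fl replicate 1 and the megakaryocyte sum in fl/fl replicate 2. Sums rest on the most abundant genes. At an unadjusted p below 0.05, 6 of the 10 red cell markers were lower and 0 higher. At that level 6 of the 14 megakaryocyte markers were lower and 1 higher, against 18.2% of all genes tested. EdgeR called 1 lower and 0 higher in both lists. DESeq2 called 4 red cell markers lower and 0 higher, and 6 megakaryocyte markers lower and 1 higher. Over all genes tested limma called 0.73%, edgeR 0.425% and DESeq2 6.95%. Gene by gene, 5 of the 9 lymphoid markers were highest in KO replicate 3 and 2 in fl/fl replicate 3 (median log2 deviations 1.85 and -0.81). Of the 14 megakaryocyte markers 6 were highest in fl/fl replicate 3 and 3 in fl/fl replicate 2 (medians 0.73 and 0.42). The part of these cell types in the values of Nek6 and of the mitotic genes was not tested.

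Overlaps with a gene on the opposite strand bear on several other values. In GENCODE M21 the shared exon bases were 29.3% of those of Kif20a (with Cdc23), 22.8% of Ube2c (with Tnnc2), 12.7% of Cdc25c (with Gm3550), 12.5% of Ccna2 (with Exosc9) and 11.1% of Prc1 (with Rccd1). Reads there cannot be assigned to a strand. The shares are of all GENCODE M21 exon bases, which exceed the deposited length of several genes (Ube2c 2600 against 931, Prc1 8225 against 3025). The shares of the bases that were counted may differ and were not measured. In Ckap2l, Plk1, Cdca8, Nusap1, Nek6 and Cdc20 the shared part was 2.84% to 7.09%. Of these genes Nek6 alone passed the test by limma, edgeR or DESeq2.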

How the data were processed

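Per the labels' protocols, SMART-Seq v4 amplified the RNA of sorted cells and Nextera XT gave the libraries, without strand marks. Per the submitters' processing notes, STAR aligned the reads to mm10 and featureCounts counted them per gene (the sources used here give no versions or annotation). As values, the authors deposited whole-number counts for Prmt5 fl/fl replicate 2 and, for the other 5 libraries, a scaled signal: counts multiplied by the total of that library (44704636) and divided by their own. Undoing this gave whole reads for 100% of values (tolerance 1e-06), so depth is known. Gene length, as deposited, served for levels per length and for length trends.

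Log2(value + 1) of the 14113 genes whose mean reached 10 entered limma 3.58.1 (KO against fl/fl, moderated test, mean-variance trend, two-sided, R 4.3.3, 4 residual degrees of freedom), adjusted by Benjamini-Hochberg over all genes tested at 0.05. Fold changes on this scale understate those of low genes. EdgeR 4.0.16 (quasi-likelihood test) and DESeq2 1.42.0 were run on the recovered reads as alternatives, with the other alternatives in the closing section. All were also run on simulated counts. These had the same relative spread for every gene and no length trend, outlying library or pair effect, so they cannot speak to those features. Plots used matplotlib 3.10.9. Each library was a separate pool of 2 mice. The spread between libraries, not the counting error, limits the precision, and the parts of the mice and of library preparation in it cannot be told apart.

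Each replicate number joins 1 library of each genotype under a common title prefix, of unstated meaning, and littermates were used. Pairs were therefore assumed for the replicate block and for differences within pairs, while the main test left pairing out. Deviations from group means correlated at -0.14, 0.067 and -0.26 in the 3 pairs. The members and lists were chosen with earlier results of these data known. The named genes were all 35 members; Prmt5, Psmb7, Foxm1, Mybl2, E2f4, Lin54, Cdkn1a, Trp53, Nek7, Nek9 and Gtse1; and in each other list the genes past the threshold, or the 1 with the smallest p. Marker lists covered red cell, megakaryocyte, myeloid, lymphoid and stem cells. Of 12 lymphoid markers 9 were tested and of 8 stem cell genes 8, with 0 calls by limma in either (1 and 2 with an unadjusted p below 0.05; 0 by edgeR; 1 and 1 by DESeq2). The length trend was added after seeing the data. Other genes were named after their values were seen.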

Additional observations from a re-analysis of the deposited data

How the results depend on the processing

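Nek6 was past the threshold in 10 of 16 alternatives, and no other of the 35 genes was in any. The smallest adjusted p of these others was 0.0586, for Cdc25c by limma without fl/fl replicate 3. The number of the 35 genes called higher, 1, fell to 0 under the replicate block and ran from 0 to 1 over the fits that leave out 1 library, and the number lower was 0 throughout. Of the 35 genes, 22 changed the sign of their log2 fold change in at least 1 alternative, all with a size of at most 0.13 at first and none of them called. In the other cell cycle lists together, the number higher, 4, became 7 by DESeq2, 0 under the replicate block and 0 to 5 over the fits that leave out 1 library, and the number lower, 0, was 1 by DESeq2. Their median log2 fold change of -0.042 was 0.052 with the length trend removed. Over all genes the block left 1 higher and 0 lower, DESeq2 called 365 and 616, and the length trend removed gave 231 and 239. Without fl/fl replicates 1 to 3 in turn the calls were 4 and 3, 4 and 2, and 121 and 257, and without KO replicates 1 to 3 they were 1 and 2, 15 and 4, and 1 and 2. With the block, which leaves 2 residual degrees of freedom, the Prmt5 limma adjusted p was 0.0618. The causes were not tested.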

Other observations

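Of the kinases and spindle genes outside the rule for named genes, 2 are given here, chosen after their values were seen. Psrc1, which encodes a microtubule-binding protein of the spindle and is a known p53 target, read 1733, 1689 and 2745 scaled counts (fl/fl) against 4578, 3710 and 4353 (KO). The groups did not overlap, and the log2 fold change of 1.07 did not pass (limma, adjusted p = 0.0681). It passed by DESeq2 (adjusted p = 3.13e-04) and by limma with the length trend removed (adjusted p = 0.0204) or without fl/fl replicate 3 (adjusted p = 0.0169), whose value was the highest of the fl/fl libraries. Plk3, a polo-like kinase of stress responses, read 397, 331 and 329 (fl/fl) against 487, 527 and 1666 (KO). The groups did not overlap, KO replicate 3 stood far above the rest, and the log2 fold change of 1.10 did not pass (limma, adjusted p = 0.258; DESeq2, adjusted p = 0.0308).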
